A study of Homo sapiens with 8 samples.

Results

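ATP-binding cassette (ABC) proteins are a family of ATPases, most of which are membrane transporters. The family was examined here in A-498 cells, a human line long established from a kidney cancer, as every gene of the table whose symbol begins with ABC, a subfamily letter from A to G and a number. Of 68 symbols of this form in the annotation, 53 were found in the table of 28395 genes. Pseudogenes, antisense genes and other non-coding genes (8 in the table) were left out, which left 45 protein-coding members. Of these, 28 had a mean of at least 10 normalized counts over the 8 libraries. All 28 passed the filter on low values (at least 10 normalized counts in at least 2 libraries), as did ABCA4, so that 29 members were tested.

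The series held polyadenylated RNA of 4 lines made from A-498, with 2 libraries per line. The lines named control line 1 and control line 2 were labelled wild type and carried non-targeting single guide RNAs (sgRNA-1 and sgRNA-2). The lines labelled KO guide 1 and KO guide 2 were labelled ANXA4 knockout and carried ANXA4 sgRNA-1 and ANXA4 sgRNA-2. ANXA4 encodes annexin A4, a calcium-dependent membrane-binding protein. All lines were grown for 24 hours in RPMI medium with serum and were harvested before confluence. The labels name no drug. Each guide RNA was represented by a single line, so an effect of the guide cannot be told apart from a difference between lines, and the labels do not say whether a line is a clone or a pool. Nothing in the labels says that the replicates were separate thaws or separate derivations, so p-values measure the spread between these cultures, which may be technical.

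The transporters of this family bind ATP at a pair of nucleotide-binding domains and use it to move a substrate across a membrane. Subfamilies A and G mostly move lipids, B and C include the exporters of drugs and of glutathione or glucuronide conjugates, and D acts in peroxisomes and lysosomes. Subfamilies E and F have no membrane domain and act on ribosomes. In the kidney, proximal tubule cells carry several members on their apical face, among them ABCB1 (P-glycoprotein), ABCC2, ABCC4 and ABCG2, where they pass drugs and metabolites into the urine.

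Depth ranged from 15784890 to 22631588 reads per library. ANXA4 had normalized counts of 2821 and 3614 in control line 1, then 3858 and 6773 in control line 2, 235.6 and 234.4 in the line labelled KO guide 1, and 3433 and 4142 in the line labelled KO guide 2. The ANXA4 transcript was thus low in the first KO-labelled line and within the control range in the second, so directions against control refer to the labels. Of 12 markers fixed for kidney tubule and clear cell carcinoma, 11 were in the table and all 11 had a mean of at least 10. PAX8, a kidney lineage transcription factor, was at 2987 to 4476. CA9, of the same list, was at 2.075 to 24.82, with a mean of 16.92. Among 6 leukocyte, 5 endothelial and 5 fibroblast markers, CD3E, CDH5 and LUM were at 0 in all libraries, and CD68, ITGAM, TEK and COL1A1 alone had a mean of at least 10. The summed fibroblast markers, nearly all COL1A1, were at 553.2 to 1429 in control and 179.3 to 515.5 in KO-labelled libraries, and the leukocyte marker ITGAM was at 21.84 to 29.42 in control and 57.94 to 83.77 in KO-labelled libraries. The fibroblast sum and ITGAM did not overlap between the arms, a separation that held for 10.6% of all tested genes. The summed leukocyte markers, mostly CD68, did overlap, at 1812 to 4297 in control and 3211 to 4468 in KO-labelled libraries. The part of these markers in the differences between the arms was not tested. The mitochondrial share of reads was 4.67% to 9.05% in 7 libraries and 13.8% in KO guide 2 replicate 2.

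The DNA just upstream of annotated transcription starts is shown for ABCC2, ABCA12 and ABCB1, because these 3 members were called with a log2 fold change of at least 1 in a KO-labelled line. The windows are 250 bases long, taken from RefSeq (build GRCh38.p14), and are written 5′ to 3′ on the strand of the gene, which is the plus strand for ABCC2 and the minus strand for the others. ABCA12 and ABCB1 have 2 annotated starts each. Capitals mark matches, on either strand, to the GC box GGGCGG, the CCAAT box, the TATA box with the letters TATAAA, the core of the antioxidant response element with the letters TGACNNNGC, and the E-box with the letters CACGTG. An HNF1 site and an LXR DR4 site were also searched for and matched no member. No matches overlapped in the printed windows.
ABCC2, start at the gene boundary, chr10:99782390-99782639: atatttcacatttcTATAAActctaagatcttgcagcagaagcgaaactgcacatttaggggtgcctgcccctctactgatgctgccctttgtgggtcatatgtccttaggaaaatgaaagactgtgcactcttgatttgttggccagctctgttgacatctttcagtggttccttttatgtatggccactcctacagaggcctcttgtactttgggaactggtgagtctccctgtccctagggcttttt
ABCA12, outer start, chr2:215138627-215138876: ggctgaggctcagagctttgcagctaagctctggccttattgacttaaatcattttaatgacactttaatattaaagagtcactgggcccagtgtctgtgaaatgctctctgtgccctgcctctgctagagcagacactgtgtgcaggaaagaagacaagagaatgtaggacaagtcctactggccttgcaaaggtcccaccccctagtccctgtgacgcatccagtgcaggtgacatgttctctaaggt
ABCA12, inner start, chr2:215032087-215032336: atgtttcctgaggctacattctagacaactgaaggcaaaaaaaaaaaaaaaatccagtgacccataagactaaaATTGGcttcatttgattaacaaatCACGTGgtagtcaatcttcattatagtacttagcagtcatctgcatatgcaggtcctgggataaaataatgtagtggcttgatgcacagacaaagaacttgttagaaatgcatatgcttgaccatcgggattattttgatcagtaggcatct
ABCB1, outer start, chr7:87713296-87713545: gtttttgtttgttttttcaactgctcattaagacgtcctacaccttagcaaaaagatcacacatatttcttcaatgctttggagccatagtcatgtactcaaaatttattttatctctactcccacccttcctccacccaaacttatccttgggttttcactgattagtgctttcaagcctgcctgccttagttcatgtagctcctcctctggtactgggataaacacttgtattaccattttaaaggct
ABCB1, inner start, chr7:87600885-87601134: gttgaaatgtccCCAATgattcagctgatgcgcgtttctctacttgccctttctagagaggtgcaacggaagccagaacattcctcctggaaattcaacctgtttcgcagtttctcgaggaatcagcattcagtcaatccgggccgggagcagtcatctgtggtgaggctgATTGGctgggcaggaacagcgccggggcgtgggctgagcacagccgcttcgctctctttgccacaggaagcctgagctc

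The ABCC2 window held a TATAAA that ended 231 bases before the start. The outer windows of ABCA12 and ABCB1 held no match. The inner window of ABCA12 held a CCAAT match and an E-box, and the inner window of ABCB1 held 2 CCAAT matches, the nearer of which ended 75 bases before the start. Of 27305 genes with a window (the first listed for each gene), 42.3% had a GC box, 33% a CCAAT match, 11.1% a TATAAA, 11% the antioxidant core and 6.49% an E-box. Among the 35 members with a window, 18 had a GC box and 6 a CCAAT match. CACGTG and the antioxidant core were found in 4 and 6 of them. A match describes letters only, and the files do not show which start the cells used.

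Levels were first compared between members per exon length. Normalized counts were divided by the exonic length in GENCODE 29, which may differ from the annotation the authors counted on. ABCF2 (932 normalized counts per kb of exon) and ABCE1 (915 per kb), which act on ribosomes, and ABCC3 (846 per kb), a basolateral exporter of conjugates, had the highest means over 8 libraries. Line means ranged from 867 to 992 per kb for ABCF2, from 848 to 961 per kb for ABCE1 and from 599 to 1248 per kb for ABCC3, so the order of these 3 depended on the line. ABCF3 (405 per kb), ABCB6 (361 per kb), ABCD3 (308 per kb) and ABCC2 (296 per kb) followed. ABCC2 had the largest ratio of highest to lowest line mean among these 28 members, with line means from 17.5 to 482 per kb (line means of ABCB6 ran from 276 to 445 per kb). Line means were at least 4-fold apart in 3 members, ABCC2 (27.6-fold), ABCB4 (6.87-fold) and ABCC9 (5.46-fold), as in 4.9% of all tested genes. The lowest of the 28 members per length were ABCC9 (1.30 per kb), ABCA13 (1.43 per kb) and ABCB4 (5.84 per kb).

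**Figure D1:**
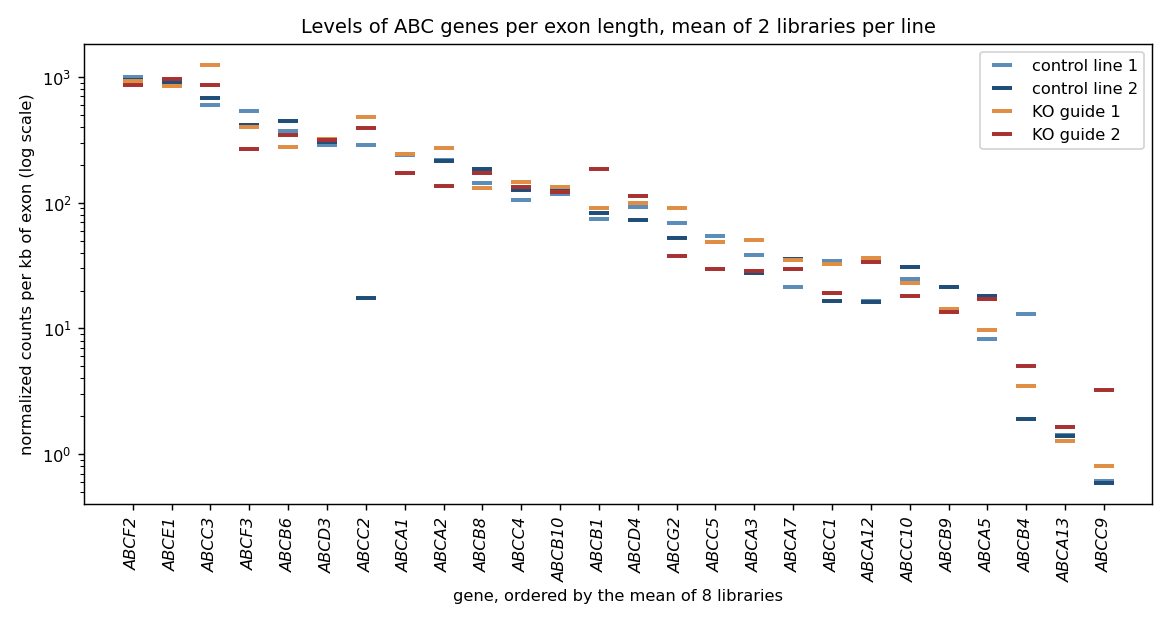
Normalized counts per kb of exon (log scale) for 26 of the 28 ABC genes with a mean of at least 10, ordered by the mean of 8 libraries; each bar is the mean of 2 libraries of a line. ABCC2 in control line 2, at 17.5 per kb, lies far below its other 3 lines.

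The other 17 members had a mean under 10. ABCA8, ABCB5, ABCB11 (the bile salt export pump) and ABCC12 had no read in any library. ABCA6, ABCA9, ABCC6, ABCC8, ABCD2, ABCG1, ABCG4, ABCG5 and ABCG8 did not exceed 7.24 normalized counts in any library. ABCG1, which moves cholesterol to high-density lipoprotein, was at 0 to 5.20. ABCA10, ABCC11 and ABCA4 reached 13.3, 9.66 and 20.4. ABCC6 has near-identical pseudogene copies and ABCC11 overlaps the more highly counted LONP2, so these values are uncertain. ABCF1, a translation factor of subfamily F, was at 2.08 to 17.2. It lies among the HLA genes of chromosome 6, where 17 of its 20 nearest protein-coding genes also had a mean under 10. Whether its counts give the level of the transcript, or reads of this region were not counted, was not tested. TAP1, TAP2 and CFTR, ABC proteins whose symbols do not carry the family name, did not exceed 2.08, 6.02 and 0.919 normalized counts. TAP1 and TAP2 lie in the same part of chromosome 6, and the same limit holds for them.

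The first comparison was that of the series' design, KO against control over all 8 libraries. Of 29 members tested, 0 were called at a limma adjusted p under 0.05, where 0.235% of all 14040 genes were called (0.128% higher and 0.107% lower). The quasi-likelihood test of edgeR called ABCA12, and DESeq2 called ABCA12, ABCB9 and ABCC3. Neither of these fits took account of lines. The shares of all genes that they called are not given here, so these calls have no background beside them. With the replicate number as a block, 0 members and 0.264% of all genes were called. The members' log2 fold changes had a median of 0.00 and ranged from -1.42 to 2.61, and the median of all genes was 0.001. In 5 of the 29 members the 4 KO-labelled libraries did not overlap the 4 control libraries, 4 higher and 1 lower, and this separation held for 10.6% of all tested genes (5.11% higher and 5.51% lower).

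These 5 members were ABCA12, ABCC2, ABCC3, ABCD4 and ABCB9. ABCA12 encodes a lipid transporter known for filling the lamellar granules of the epidermis. Its normalized counts were 155.4 and 158.1 in control line 1, then 178.1 and 126.9 in control line 2, 369.5 and 312.2 in the line labelled KO guide 1, and 319.6 and 313.9 in the line labelled KO guide 2. All KO-labelled libraries were above all controls, and both lines of each arm lay close together. The control libraries averaged 154.6 ± 21.1 (SD, n = 4 libraries of 2 lines) and the KO-labelled ones 328.8 ± 27.3 (SD, n = 4 libraries of 2 lines). KO-labelled libraries were higher by 1.09 on the log2 scale (SE 0.19, limma adjusted p 0.0532), with 1.04 within replicate 1 and 1.14 within replicate 2. The counted region overlaps SNHG31, which was at 28.2 to 46.5 normalized counts. ABCD4, which acts in the export of cobalamin from lysosomes, had 281.3 and 277.7, 209.9 and 224.3, 285.0 and 307.0, and 316.5 and 367.0 in the same order of lines. The arms were separated only by the step from 281.3 to 285.0. ABCB9, a lysosomal peptide transporter, had 150.7 to 154.0 in the 4 control libraries, 113.5 and 92.3 in the line labelled KO guide 1 and 120.0 and 72.4 in the line labelled KO guide 2. Its log2 fold change was -0.63 (SE 0.24, adjusted p 0.346). The overlapping gene OGFOD2 had more counts than ABCB9, at 369.2 to 449.8, and strand use in counting was not given in the sources used here.

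**Figure D2:**
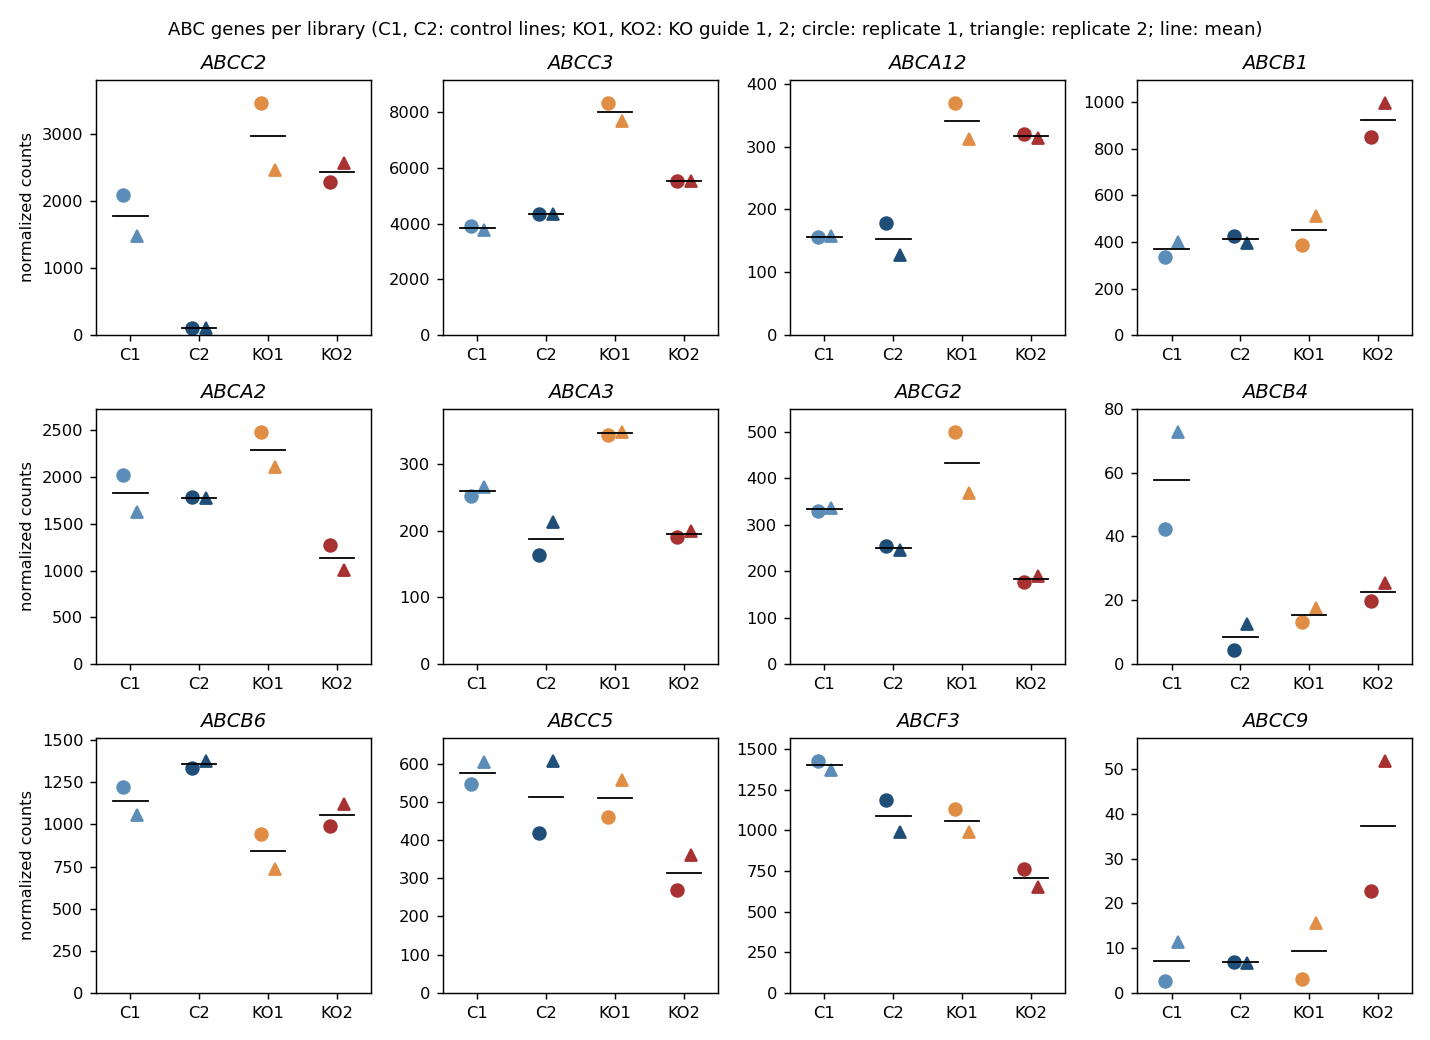
Normalized counts (linear axis from 0) of 12 ABC genes in each library, with the mean of each line as a bar. ABCC2 is near 0 in control line 2 alone, ABCA12 and ABCC3 are higher in both KO-labelled lines, and ABCB1 is higher in the line labelled KO guide 2.

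ABCC2 and ABCC3 export glutathione and glucuronide conjugates, the first from the apical and the second from the basolateral face of epithelial cells. ABCC2 (Entrez gene 1244, GRCh38 chr10:99782640-99852594) had normalized counts of 2092 and 1477 in control line 1 but only 103.2 and 112.2 in control line 2. The line labelled KO guide 1 had 3470 and 2470, and the line labelled KO guide 2 had 2295 and 2572. The member that varied most was therefore set apart by a control line. Control line 2 was lower than control line 1 by a log2 difference of -4.02 (SE 0.21, limma adjusted p 3.87e-05). Its 20 neighbouring tested genes had a median difference of 0.08 in the same comparison.

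Against the mean of both control lines ABCC2 rose by 2.74 in the line labelled KO guide 1 (SE 0.18, limma adjusted p 0.000211) and by 2.48 in the line labelled KO guide 2 (SE 0.18, adjusted p 0.000249). These values rest on control line 2. Against control line 1 alone the differences were 0.74 (adjusted p 0.0647) and 0.47 (adjusted p 0.194), and against control line 2 alone they were 4.75 and 4.48. ABCC2 kept its call whichever of the 8 libraries was left out, and each such fit kept a library of control line 2. Over the arms the log2 fold change was 2.61 (SE 0.89, adjusted p 0.284).

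ABCC3 (Entrez gene 8714, chr17:50634881-50692253) had 3904 and 3784 normalized counts in control line 1, with 4337 and 4342 in control line 2. It had 8337 and 7674 in the line labelled KO guide 1 and 5528 and 5537 in the line labelled KO guide 2. The 3 levels (both control lines, KO guide 2, KO guide 1) did not overlap. ABCC3 rose by 0.97 in the line labelled KO guide 1 (SE 0.10, limma adjusted p 0.00174) and by 0.44 in the line labelled KO guide 2 (SE 0.10, adjusted p 0.0292). The first rise was called in all 8 fits that left out a library and against either control line alone. The second was called in none of those 8 fits, where its adjusted p reached 0.0997, and not against control line 2 alone (0.35, adjusted p 0.133). The rises differed from each other by -0.53 (KO guide 2 minus KO guide 1, SE 0.12, adjusted p 0.0369), a call lost in each of the 8 fits without a library, where its adjusted p reached 0.203.

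In the line labelled KO guide 1, 5 of 29 members were called against both control lines, 4 higher and 1 lower, where 7.01% of all genes were called (3.82% higher and 3.18% lower). The members were ABCC2, ABCA12, ABCC3 and ABCA3 as higher and ABCB6 as lower. ABCA12 rose by 1.14 (SE 0.17, limma adjusted p 0.00787), also against each control line alone (1.11 and 1.17). ABCA3, which loads phospholipid into the lamellar bodies of lung cells, had 343.7 and 348.5 normalized counts in this line, against 252.8 and 266.2 in control line 1, with 163.5 and 213.0 in control line 2. Its rise was 0.65 (SE 0.15, adjusted p 0.0410), and it was not called against control line 1 alone (0.41, adjusted p 0.191). For control line 2 minus control line 1, ABCA3 differed by -0.47 (limma adjusted p 0.233). Its 20 neighbours on chromosome 16 had a median of -0.38 there, and the part of this shift in the rise was not tested. ABCB6, a porphyrin transporter, had 943.3 and 735.4 normalized counts, against 1221 and 1056 in control line 1, with 1335 and 1378 in control line 2. Its fall was -0.57 (SE 0.14, adjusted p 0.0432), not called against either control line alone (-0.45 and -0.70, adjusted p 0.124 and 0.0598).

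The 5 calls became 2 (ABCC2 and ABCC3) when either library of this line was left out, and 3 when either replicate of control line 1, or replicate 1 of control line 2, was left out. With the replicate number as a block, 11 members were called, where 24.4% of all genes were. The added members included ABCA2, ABCB8, ABCB9, ABCC4 and ABCG2, with block adjusted p-values of 0.0252, 0.0371, 0.0406, 0.0241 and 0.0115.

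In the line labelled KO guide 2, 8 of 29 members were called, 4 higher and 4 lower, where 11.2% of all genes were called (4.54% higher and 6.67% lower). Higher were ABCC2, ABCB1, ABCA12 and ABCC3, and lower were ABCF3, ABCC5, ABCA2 and ABCG2. ABCB1 encodes P-glycoprotein, the multidrug exporter of the apical membrane. ABCB1 (Entrez gene 5243, chr7:87503017-87713295) had 336.5 and 400.4 normalized counts in control line 1, then 425.9 and 397.7 in control line 2, 388.3 and 510.4 in the line labelled KO guide 1, and 849.1 and 997.1 in the line labelled KO guide 2. The last 2 libraries stood above the other 6. The rise against both control lines was 1.24 (SE 0.16, limma adjusted p 0.00276), was 1.32 and 1.16 against each control line alone, and was called in all 8 fits without a library. Its inner promoter window, printed above, carried the CCAAT matches. RUNDC3B, which overlaps ABCB1, was at 4.70 to 23.0 normalized counts.

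ABCG2, the exporter of urate and of many drugs known as breast cancer resistance protein, was highest in the line labelled KO guide 1 and lowest in the line labelled KO guide 2. Its normalized counts were 330.1 and 335.9 in control line 1, then 254.7 and 245.9 in control line 2, 499.5 and 367.2 in the line labelled KO guide 1, and 175.8 and 189.5 in the line labelled KO guide 2. It fell by 0.66 on the log2 scale in the latter (limma SE 0.16, adjusted p 0.0304). The difference was 0.57 in the line labelled KO guide 1 (SE 0.16, adjusted p 0.0659, and 0.0115 with the replicate block). The fall was not called against control line 2 alone (-0.45, adjusted p 0.197) and was called in 2 of the 8 fits without a library (adjusted p up to 0.110).

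ABCA2, a lipid transporter of endosomes and lysosomes, had 2026 and 1628 normalized counts in control line 1, then 1781 and 1779 in control line 2, 2483 and 2105 in the line labelled KO guide 1 and 1274 and 1001 in the line labelled KO guide 2. Its fall in the last line was -0.67 (SE 0.15, limma adjusted p 0.0219). Against control line 2 alone it was -0.66 (adjusted p 0.0621), and it lost its call when KO guide 2 replicate 2 or control line 1 replicate 1 was left out (adjusted p up to 0.115). The 20 neighbouring genes of ABCA2 on chromosome 9 had a median of -0.32 in this comparison, and the whole chromosome a median of -0.38. ABCA1, on another part of that chromosome, which loads cholesterol and phospholipid onto apolipoprotein A-I, had 1844 and 2024 normalized counts in this line and 2456 to 3049 in the other 6 libraries, a difference of -0.49 (SE 0.14, adjusted p 0.0541, and 0.00174 with the replicate block). The median of its 20 neighbours was -0.39.

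ABCC5 and ABCF3 lie near each other on chromosome 3, at chr3:183919934-184017884 and chr3:184186199-184194005. ABCC5 exports cyclic nucleotides, and ABCF3 is a soluble member of subfamily F. ABCC5 had 547.1 and 604.3 normalized counts in control line 1, then 419.0 and 607.3 in control line 2, 461.1 and 557.0 in the line labelled KO guide 1, and 267.9 and 359.7 in the line labelled KO guide 2. ABCF3 had 1427 and 1373, 1188 and 990.2, 1128 and 988.5, and 761.2 and 650.7 in the same order. Both were lowest in the line labelled KO guide 2. The differences were -0.79 for ABCC5 (SE 0.19, limma adjusted p 0.0316) and -0.81 for ABCF3 (SE 0.13, adjusted p 0.00684). The 20 neighbouring tested genes had medians of -0.81 and -0.89 in the same comparison, and the whole chromosome a median of -0.48. The 2 members share most of these neighbours, and the part of this regional shift in their values was not tested. Against control line 2 alone neither was called (-0.70 and -0.62, adjusted p 0.111 and 0.0521). The fall of ABCF3 was called in all 8 fits without a library and that of ABCC5 in 2 of them (adjusted p up to 0.153).

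**Figure D3:**
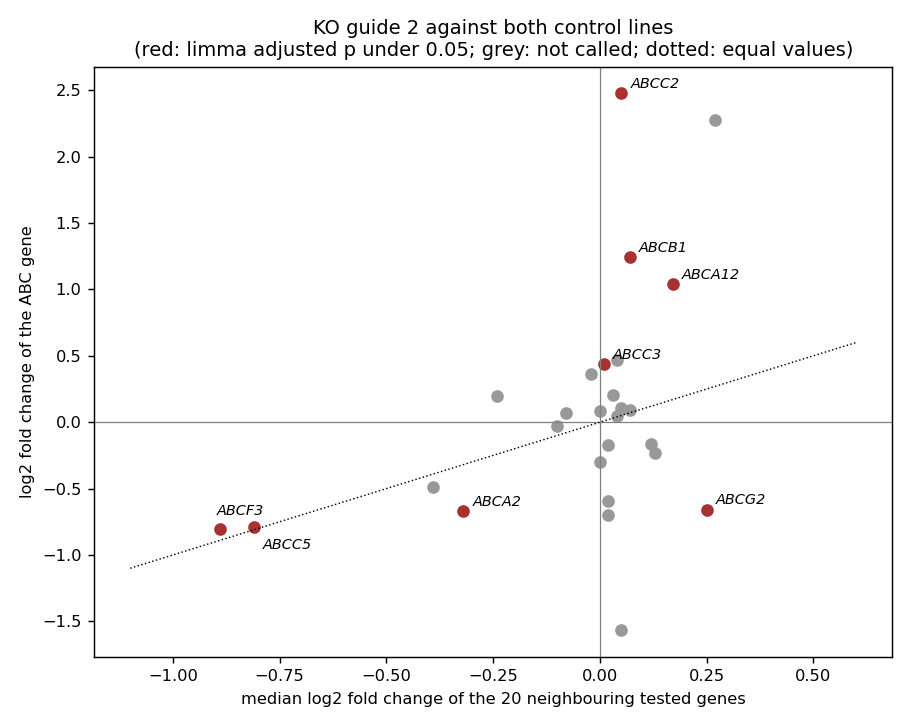
Log2 fold change of 27 of the 29 tested ABC genes in the line labelled KO guide 2 against both control lines (y axis), set against the median of their 20 neighbouring tested genes (x axis). ABCF3 and ABCC5 lie close to the dotted line of equal values, with neighbour medians of -0.89 and -0.81, while ABCC2, ABCB1 and ABCA12 lie far above it.

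ABCC9, the sulfonylurea receptor subunit of a potassium channel, was counted at a low level. It had 2.76 and 11.4 normalized counts in control line 1, then 6.88 and 6.80 in control line 2, 3.13 and 15.6 in the line labelled KO guide 1, and 22.8 and 51.9 in the line labelled KO guide 2. The difference in the last line was 2.28 (SE 0.69, limma adjusted p 0.0669, and 0.00343 with the replicate block). Its replicates were more than 2-fold apart in 3 of the 4 lines, with replicate 2 higher.

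The 8 calls were 4 without replicate 1 of control line 1, and 5 without replicate 2 of either control line. With the replicate block 13 members were called, where 27.4% of all genes were, and these included all 8. The added members were ABCA1, ABCB9, ABCC9, ABCC10 and ABCD4, of which ABCB9, ABCC10 and ABCD4 had block adjusted p-values of 0.0134, 0.0120 and 0.0134. The comparisons of the KO-labelled lines share their control libraries, so their values stand side by side and are no check of each other.

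**Figure D4:**
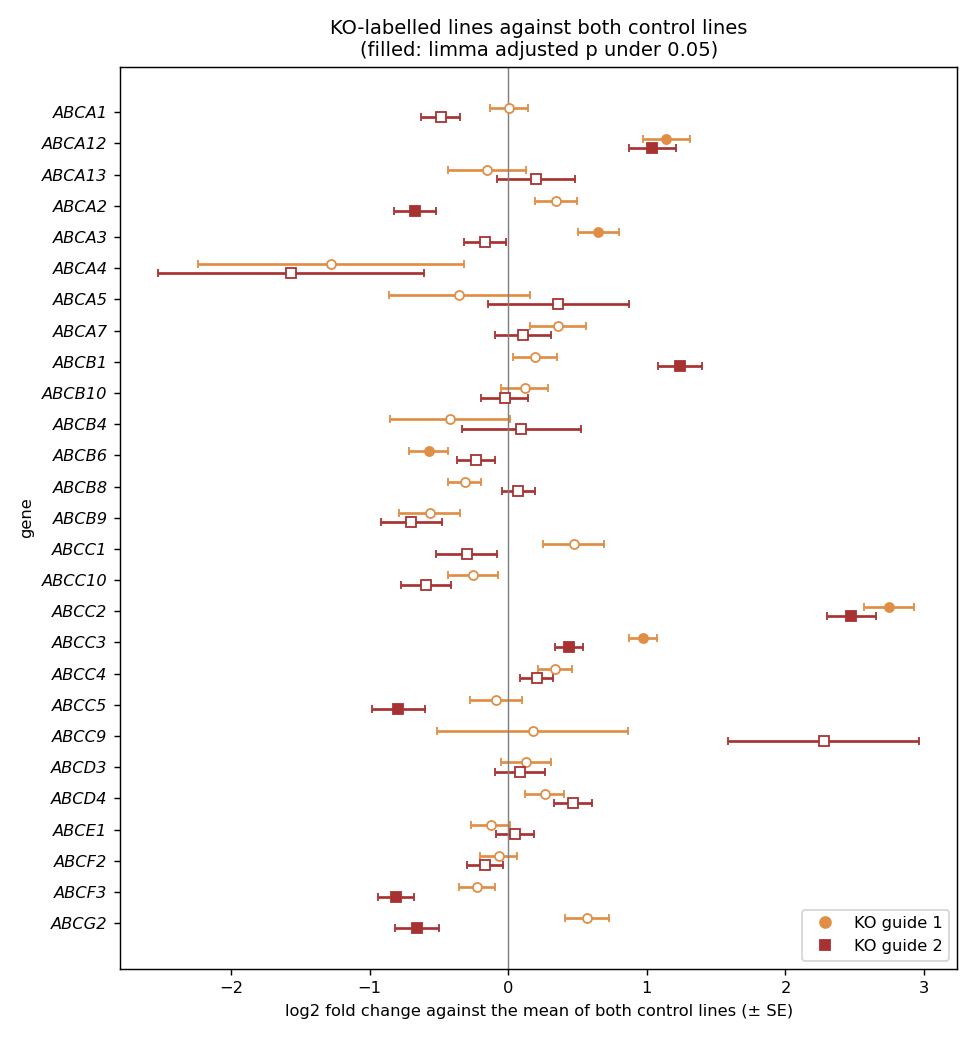
Log2 fold change (± SE) of 27 of the 29 tested ABC genes in each KO-labelled line against the mean of both control lines; filled symbols have a limma adjusted p under 0.05. ABCC2, ABCC3 and ABCA12 are filled and above 0 in both lines, and ABCB1 is filled in the line labelled KO guide 2 only.

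When the KO-labelled lines were compared with each other, limma called 5 of 29 members, where 6.94% of all genes were called (2.41% higher and 4.53% lower). ABCB1 had more counts with KO guide 2, by 1.05 (SE 0.18, limma adjusted p 0.0155). ABCG2 (-1.23, SE 0.18, adjusted p 0.00885), ABCA2 (-1.02, SE 0.17, adjusted p 0.0137), ABCA3 (-0.82, SE 0.18, adjusted p 0.0324) and ABCC3 (-0.53) were lower there. ABCA12 differed by -0.10 (SE 0.20, adjusted p 0.794) and ABCC2 by -0.27 (SE 0.21, adjusted p 0.470). With the replicate block 11 members were called, where 24.5% of all genes were. The added members were ABCA1, ABCB8, ABCC1, ABCC5, ABCC9 and ABCF3. Leaving out KO guide 1 replicate 1 left 0 calls, and leaving out KO guide 1 replicate 2 or KO guide 2 replicate 2 left 1. The count was 3 when KO guide 2 replicate 1 or either library of control line 1 was left out.

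Between the control lines, which carried no ANXA4 guide, 2 of 29 members were called, both of them lower in control line 2, where 2.13% of all genes were called (1.05% higher and 1.08% lower). These were ABCC2 and ABCB4. ABCB4, which moves phosphatidylcholine into bile in the liver, had 42.3 and 72.8 normalized counts in control line 1, then 4.30 and 12.5 in control line 2, 13.3 and 17.6 in the line labelled KO guide 1, and 19.65 and 25.35 in the line labelled KO guide 2. Control line 1 was above the other 6 libraries, and the difference between control lines was -2.74 (SE 0.50, limma adjusted p 0.0346). CROT, which overlaps ABCB4, was at 612.6 to 944.0 normalized counts and was not low in control line 2, at 687.4 and 702.4. The call for ABCB4 was lost in 5 of the 8 fits without a library, with an adjusted p of up to 0.274: it was lost on leaving out either library of KO guide 1 or of control line 1, or replicate 1 of control line 2. With the replicate block 6 members were called, where 12.5% of all genes were, the added ones including ABCA7, ABCC1 and ABCF3 (block adjusted p 0.0232, 0.0111 and 0.0491). ABCC1, the first described multidrug resistance protein of subfamily C, had 186.6 and 263.1 normalized counts in control line 1, with 127.3 and 91.8 in control line 2, a difference of -1.03 (SE 0.25, adjusted p 0.0760). The 20 neighbours of ABCC1 on chromosome 16 had a median of -0.36, and the whole chromosome a median of -0.37.

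**Figure D5:**
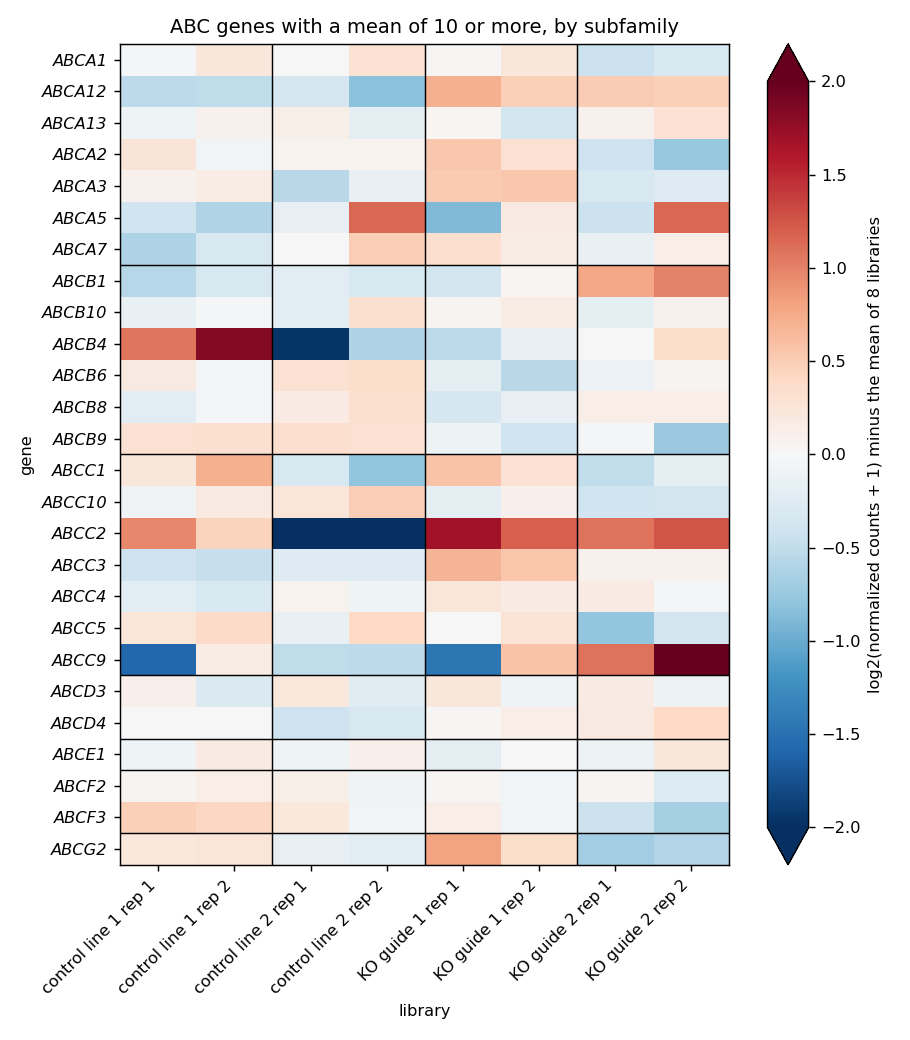
Log2(normalized counts + 1) of 26 of the 28 ABC genes with a mean of at least 10, minus the mean of the 8 libraries, by subfamily (rows) and library (columns); the colour scale ends at 2 in either direction. ABCC2 is blue in both libraries of control line 2 only, and ABCA5 is red in replicate 2 of control line 2 and of the line labelled KO guide 2.

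Members also differed between replicate 2 and replicate 1, a comparison that the labels do not explain. Of 29 members, 6 were called, 4 higher and 2 lower in replicate 2, where 17.6% of all genes were called (8.97% higher and 8.62% lower). ABCA5, a lysosomal lipid transporter, was higher in replicate 2 by 0.94 (SE 0.24, limma adjusted p 0.0196). Its normalized counts in replicates 1 and 2 were 80.9 and 69.7 in control line 1, then 94.6 and 237.9 in control line 2, 57.1 and 120.3 in the line labelled KO guide 1, and 78.6 and 237.8 in the line labelled KO guide 2, so that control line 1 did not share the rise. ABCD3, a peroxisomal transporter of fatty acids, was lower in replicate 2 in all 4 lines, by -0.36 (SE 0.08, adjusted p 0.0104). Taking the lines in the same order, it went from 1229 to 932.9, from 1322 to 963, from 1341 to 1078 and from 1275 to 1066 normalized counts. Its call was lost in 3 of the 8 fits without a library (adjusted p up to 0.0745). ABCE1, which splits ribosomes after termination, was higher in replicate 2 in every line, with 3347 and 3985, 3367 and 3818, 3105 and 3547, and 3339 and 4198 (0.24, SE 0.07, adjusted p 0.0409). ABCC5 (0.34, SE 0.10, adjusted p 0.0296) and ABCC9 (1.22, SE 0.38, adjusted p 0.0447), whose counts are given above, were also higher. The call for ABCE1 was lost whichever library was left out (adjusted p up to 0.133), and those for ABCA5, ABCC5 and ABCC9 in 6 of the 8 such fits. In single fits that left out a library the count was between 2 and 4. Without a term for the line 0 were called.

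By role, the exporters of drugs and conjugates at the plasma membrane (9 listed, 8 tested) held 2 called members in the line labelled KO guide 1, both higher, and 5 in the line labelled KO guide 2, 3 higher and 2 lower. The shares of all genes called were 7.01% and 11.2%. The medians of the exporters were 0.41 and -0.05, and those of all genes -0.001 and 0.01. ABCC4, which exports cyclic nucleotides and prostaglandins, was at 640.7 to 829.4 normalized counts in control and 782.2 to 934.7 in KO-labelled libraries, and the ranges overlapped. ABCC10 was at 98.2 to 183.5 over all libraries. The mitochondrial transporters, which serve iron-sulfur cluster and haem metabolism, (4 tested) held 1 called member in the line labelled KO guide 1, the lower ABCB6 described above, and 0 in the line labelled KO guide 2. ABCB8 was at 634.1 to 1002 and ABCB10 at 412.1 to 598.2 normalized counts. ABCB8 was called only with the replicate block, in the line labelled KO guide 1 (adjusted p 0.0371) and between the KO-labelled lines (adjusted p 0.0285), and ABCB10 in none of the 6 comparisons. Among lipid transporters, ABCA7 was at 132.4 to 288.9 and ABCA13 at 18.7 to 30.2. The ribosome-bound ABCE1 and ABCF2 were at 3105 to 4198 and 2719 to 3621, and neither was called against control in either KO-labelled line.

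Partners of these transporters were read from lists. Of the xenobiotic receptors, conjugating enzymes and other drug carriers (20 listed, 14 tested), 1 was called in the line labelled KO guide 1 and 5 in the line labelled KO guide 2, all higher, where 7.01% and 11.2% of all genes were called. In the latter these were CYP1B1, an oxidase induced through the aryl hydrocarbon receptor (2.35, SE 0.18, limma adjusted p 0.000286), CYP3A5, UGT2B7, MVP and AHR itself (0.62, SE 0.12, adjusted p 0.0139). CYP1B1 had 6041 and 6142 normalized counts there and 689.5 to 1936 in the other 6 libraries. CYP1B1 also differed between the control lines, by 1.02 (adjusted p 0.0437). The median of the list was 0.03 in this line. With the replicate block 6 of the list were called in each KO-labelled line, where 24.4% and 27.4% of all genes were called. The nuclear receptor NR1I2, which controls ABCB1 and ABCC2 in liver, did not exceed 2.08 normalized counts, and GSTP1 was listed at 0 in all libraries. Whether the 0 of GSTP1 gives the level of its transcript, or its reads were not counted, was not tested.

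Of the partners in sterol and phospholipid efflux (16 listed, 14 tested), 1 was called in the line labelled KO guide 1 (PLTP, lower) and 0 in the line labelled KO guide 2. Of the genes of peroxisomal import and fatty acid oxidation (16 listed, 15 tested), 1 and 3 were called in the 2 lines, and of those of mitochondrial iron-sulfur and haem synthesis (18 tested), 1 and 2. Shares of all genes called were 7.01% in the first line and 11.2% in the second. With the replicate block, 6 and 5 of the sterol and phospholipid partners were called, with list medians of 0.14 and -0.10. The block counts were 3 and 7 for the peroxisomal list and 5 and 5 for iron-sulfur and haem synthesis. That fit called 24.4% and 27.4% of all genes. In the lysosomal cobalamin pathway (10 tested), TCN2, the carrier of cobalamin in blood, rose in both lines, by 1.35 (SE 0.16, adjusted p 0.00233) and 0.80 (SE 0.16, adjusted p 0.0149), and CD320, its receptor, fell by 0.60 (SE 0.12, adjusted p 0.0256) and by 0.50 (SE 0.12, adjusted p 0.0327). TCN2 also differed between the control lines, by 0.93 (adjusted p 0.0411). Of the potassium channel and pyrophosphate partners (6 listed, 3 tested), ENPP1 fell in the line labelled KO guide 2 (-0.82, adjusted p 0.0170). Of 8 peptide-loading and 11 ribosome recycling partners tested, 0 were called by limma in either line, and 3 and 3 were called in the line labelled KO guide 1 and 1 and 1 in the line labelled KO guide 2 with the replicate block, which called 24.4% and 27.4% of all genes.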

How the data were processed

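The deposited values were a normalized signal (read counts per gene divided by 1 factor per library), made by the authors, with featureCounts named per the file headers. The submitters' processing notes list fastp 0.23.2, HISAT2 2.2.1, featureCounts 2.0.1 and DESeq2 2.11.40.8 and the build GRCh38, without roles. Strand use in counting was not given in the sources used here. Dividing each column by its lowest value above 0 gave whole reads for 100% of values (relative tolerance 1e-06), and the recovered factors matched DESeq2 size factors within a relative difference of 3.65e-10. Symbols came from RefSeq GRCh38.p14 and were found for 27745 of 28395 identifiers.

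Tests used limma 3.58.1 (R 4.3.3) on log2(value + 1), which understates changes of low genes. The 14040 genes that reached 10 in 2 or more libraries entered the tests, with Benjamini-Hochberg adjustment over all of them and a threshold of 0.05. KO against control used all 8 libraries, with the correlation within lines (0.33) from duplicateCorrelation. The other comparisons used 1 mean per line, with 4 residual degrees of freedom, and take no account of variation between lines. A fold change against both control lines is against the mean of their log2 values. The replicate 2 against replicate 1 comparison added the replicate number to the line means.

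Members, lists and naming rule were chosen with earlier results of these data known. Of the members with a mean of 10 or more, 26 were named, and the others enter the counts but are not reported here. Values in every library were given for named members with a call in a comparison or with line means at least 4-fold apart, and further members were chosen after their values were seen. Replicate numbers came from the titles. Differences between replicate 2 and replicate 1 correlated across genes at 0.285 to 0.501 in the 6 pairs of lines, above the limit of 0.1, so the numbers were taken to pair the libraries. The reported fits nevertheless leave the pairing out. The replicate block is given beside them for the family counts and for most of the partner lists, but not for the counts by role. On simulated data with 200 of 14040 genes changed, KO against control recovered 84% of 2-fold (log2 of 1) and 100% of 4-fold (log2 of 2) changes, without variation between lines, and called 23 unchanged genes. KO guide 1 against controls recovered 72% and 100% and called 12 unchanged genes. Recovery was not split by expression level. The changed genes were drawn only from better expressed genes, with means above those of ABCC9, ABCA13 and ABCB4. These shares therefore cannot be read as recovery for such low members. Alternatives were the pseudocount, the filter, TMM and equal totals, edgeR 4.0.16, DESeq2 1.42.0, the replicate block, the treatment of lines, each library left out and, chosen after seeing the data, a single control line as reference. Depth limits cover counting error only.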

Additional observations from a re-analysis of the deposited data

Results flagged for a closer look

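The effects of the KO-labelled lines against the same controls differed for 5 members, tested directly as KO guide 2 minus KO guide 1 (limma, adjusted over all genes). The differences were -1.23 for ABCG2, -1.02 for ABCA2, -0.82 for ABCA3, -0.53 for ABCC3 and 1.05 for ABCB1. Tested genes of chromosome 9, where ABCA2 lies, had a median of -0.40 in this comparison. The call for ABCG2 held in 7 of the 8 fits without a library, those for ABCA2 and ABCB1 in 5, that for ABCA3 in 2 and that for ABCC3 in 0.

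Among 56 sets of 4 libraries (28 members, 2 arms), 2 had an end library so far from the other 3 that its gap exceeded Dixon's limit, and chance gives about 1 in 20. These were ABCA12 at 369.5 in replicate 1 of the line labelled KO guide 1 and ABCA5 at 237.9 in replicate 2 of control line 2.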

How the results depend on the processing

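None of the 26 calls of a member in a comparison changed direction under an alternative. Of 465 values under alternatives, 348 kept the call and 117 lost it. The number of members called for KO against control was 0 and became 1 without a filter and 1 with limma and no account of lines. It became 1 with edgeR and 3 with DESeq2, which took no account of lines either. With the replicate block the counts became 11 for KO guide 1 against controls (from 5), 13 for KO guide 2 against controls (from 8), 6 between the control lines (from 2) and 11 between the KO-labelled lines (from 5). Without a filter the count was 3 for KO guide 1, and 1 between the control lines, where a filter of 50 in 4 libraries also left 1, since ABCB4 was then not tested. With control line 1 alone as reference the count was 2 for KO guide 1, and with control line 2 alone it was 3 for KO guide 2. Between replicates it was 0 without the line in the fit (from 6). Leaving out single libraries gave 2 to 5 members for KO guide 1, 4 to 7 for KO guide 2, 1 to 2 between the control lines, 0 to 4 between the KO-labelled lines and 2 to 4 between the replicates. Some of these settings hold fewer libraries or genes, and the causes of the moves were not tested. Apart from the replicate block, shares of all genes called under these settings are not given here. TMM scaling changed none of the counts of members. Low counts limit the 17 members with a mean under 10, of which ABCA4 alone was tested with the filter. Without a filter ABCC6 and ABCG1 were added to the calls for KO guide 2, at no more than 4.83 and 5.20 normalized counts in any library, and ABCA4 was added when KO guide 2 replicate 2 was left out.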

Other observations

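ABCF1 stood among genes with very few counts. Its 20 nearest protein-coding genes had a median of the means of 0.484 normalized counts, and TUBB, DHX16 and HLA-E were the only ones with a mean of at least 10. From HLA-F to HLA-DPB1, 113 of 125 protein-coding genes of chromosome 6 had a mean under 10 (90.4%), against 40.4% on the rest of the chromosome. DHX16 and PPP1R10 ranged from 1.03 to 78.3 and from 1.21 to 58.5 between libraries. What set these low counts was not tested.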
